A study of Mus musculus with 4 samples.

Results

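S100 genes encode small calcium-binding proteins of the EF-hand type. This report follows 8 of them, S100a1, S100a4, S100a6, S100a10, S100a11, S100a13, S100a16 and S100b, in cells sorted from the mouse spinal cord after injury and from uninjured cords. The 8 genes were found by name among 32287 gene rows, which held 17 S100 genes in all. They were selected on earlier results of these data, namely the high ratios of S100a6 and S100a11 between the conditions in astrocytes. Their levels by cell class and condition are therefore given as a description, without a test.

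Animals of both conditions were Cx30-tdTomato mice of 8 to 12 weeks, in which tamoxifen switches on the red reporter tdTomato in cells that use Cx30, an astrocyte gap junction gene. All of them had received an intravenous pool of adeno-associated viruses with candidate enhancers, in the injured animals 14 days before surgery. The time from virus to sampling was not stated for the uninjured animals. Injured animals had a contusion of the spinal cord, and a 5 mm segment around the lesion was taken 3 days later. Uninjured controls gave the same level of the cord. The tdTomato-positive cells of 1 to 2 animals per sex were pooled and profiled with the 10x Genomics 3′ chemistry, giving 1 gene expression library per condition. With 1 library per condition, animals cannot be told apart, no p-value can be given, and every interval below is an exact 95% interval that covers counting error only.

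Most S100 proteins work as pairs that change shape when calcium binds and then attach to a target protein. S100b is a long-used marker of astrocytes, and S100a10 is unusual in that it does not bind calcium and forms a complex with the annexin Anxa2. S100a8 and S100a9 together form calprotectin, an abundant protein of neutrophils. Astrocytes near a lesion become reactive, a state marked by the filament genes Gfap and Vim.

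The kept cells numbered 879 in the injured and 4159 in the uninjured library, with medians of 6816 and 3343 gene UMIs (unique molecular identifiers, each standing for 1 captured transcript). The libraries shared 7 cell barcodes. Both sexes were stated for each condition, but Xist was found in 28.7% of injured and 0.120% of uninjured cells. Values among cells scored male are therefore given beside the main ones. Clusters were named from marker genes with all S100 genes left out of the clustering. Astrocyte-like cells were 414 of the injured (47.1%, 43.8% to 50.5%) and 3336 of the uninjured cells (80.2%), and all 8 astrocyte markers were found in both. The sort also held microglia-like, ependymal-like, endothelial-like, fibroblast-like, OPC-like (oligodendrocyte precursor) and a few mural-like cells, although the sort was for an astrocyte reporter.

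The 8 genes lie on 2 chromosomes. Per the GENCODE M21 annotation of GRCm38, 7 of them fall within 3.05 Mb of chromosome 3. S100a1, S100a13, S100a16, S100a4 and S100a6 lie between 90511034 and 90624181, and S100a11 and S100a10 between 93520488 and 93564643. S100b is alone on chromosome 10, from 76253853 to 76261159 on the plus strand, opposite to the gene Dip2a that it overlaps. S100a4 overlaps the predicted gene Gm42674 on the same strand, so its counts are less certain than the others.

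Both of the sequences shown here lie upstream of genes that the results below turn on, and come from the RefSeq promoter table of GRCm38.p6, which held 7 of the 8 genes (S100a10 has no entry). The first is the stretch before S100a11, which with S100a6 had the widest difference between conditions, with the AP-1 letters TGAGTCA in capitals. AP-1 is a family of stimulus-induced transcription factors. The second is the whole gap of 42 bases between the GENCODE ends of S100a1, on the minus strand, and S100a13, on the plus strand. These genes start back to back yet differed in their ratios. RefSeq places the start of S100a1 elsewhere, so this gap holds for the GENCODE annotation only.
S100a11 upstream, chr3:93520340-93520487, plus strand: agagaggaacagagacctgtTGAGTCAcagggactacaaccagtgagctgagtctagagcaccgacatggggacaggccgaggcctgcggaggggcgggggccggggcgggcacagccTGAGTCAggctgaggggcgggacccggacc
between S100a1 and S100a13, chr3:90514393-90514434, plus strand: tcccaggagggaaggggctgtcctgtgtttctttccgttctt
The AP-1 letters began 136 and 38 bases before the RefSeq start of S100a11, and the window of 250 bases before to 50 after the start held them in none of the other 6 genes. They read the same on both strands apart from the central base, so both strands were searched. Among all genes of the table, 5.95% held them. The letters TTCNNNGAA of STAT factors and the full palindromic motif of NFI factors were in no window of the 7 genes, against 9.55% and 0.0444% of all genes. A match of letters is a description of the sequence and not a bound site.

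In astrocyte-like cells all 8 genes had higher levels in the injured library, with every interval of the ratio above 1. Levels are given as CPM, the UMIs of a gene per 1000000 gene UMIs of the class. Of the 8, 6 were at least 2-fold higher and none was 2-fold lower. The background was 13.8% of 9535 genes at least 2-fold higher and 7.05% at least 2-fold lower. The median log2 ratio was 2.86 over the 8 genes and 0.04 over all genes tested. When each cell was weighted equally, 13.5% of genes were higher and 12.6% lower, and all 8 members passed 2-fold.

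The widest differences were in S100a6 and S100a11. S100a6, also called calcyclin, stood at 1872 CPM after injury (4448 UMIs) against 17.2 CPM (214 UMIs), a ratio of 109 (6.57 to 6.97 on the log2 scale). S100a11, a partner of annexins at membranes, stood at 377 and 2.49 CPM (897 and 31 UMIs), a ratio of 152 (106 to 225). Both were near absent from uninjured astrocyte-like cells. By log2 ratio they ranked 12 and 11 from the top of the 9535 genes.

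S100a10 and S100a4 came next. S100a10 was at 768 CPM after injury and at 46.3 CPM without it, a ratio of 16.6. S100a4, which binds nonmuscle myosin, was low throughout, at 21.9 CPM (52 UMIs) and 0.883 CPM (11 UMIs), a ratio of 24.8 (12.8 to 52.7). These 2 genes held ranks 104 and 128.

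The other 4 genes were already well detected in uninjured astrocyte-like cells and differed less. S100a13, a carrier in the non-classical release of Fgf1 and Il1a, was at 629 and 145 CPM, a ratio of 4.34. S100a16 was at 480 and 129 CPM, a ratio of 3.72. Of the genes past the 2-fold line, these had the smallest ratios.

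S100a1, known as a regulator of the calcium pump Atp2a2, was just inside that line at 462 and 242 CPM, a ratio of 1.91 (1.78 to 2.04). S100b was at 695 and 379 CPM, a ratio of 1.83 (1.73 to 1.94), the smallest of the 8. S100a13 thus differed by more than S100a1 across their shared GENCODE gap of 42 bases. The intervals of the log2 ratio ran from 2.02 to 2.22 and from 0.83 to 1.03.

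**Figure D1:**
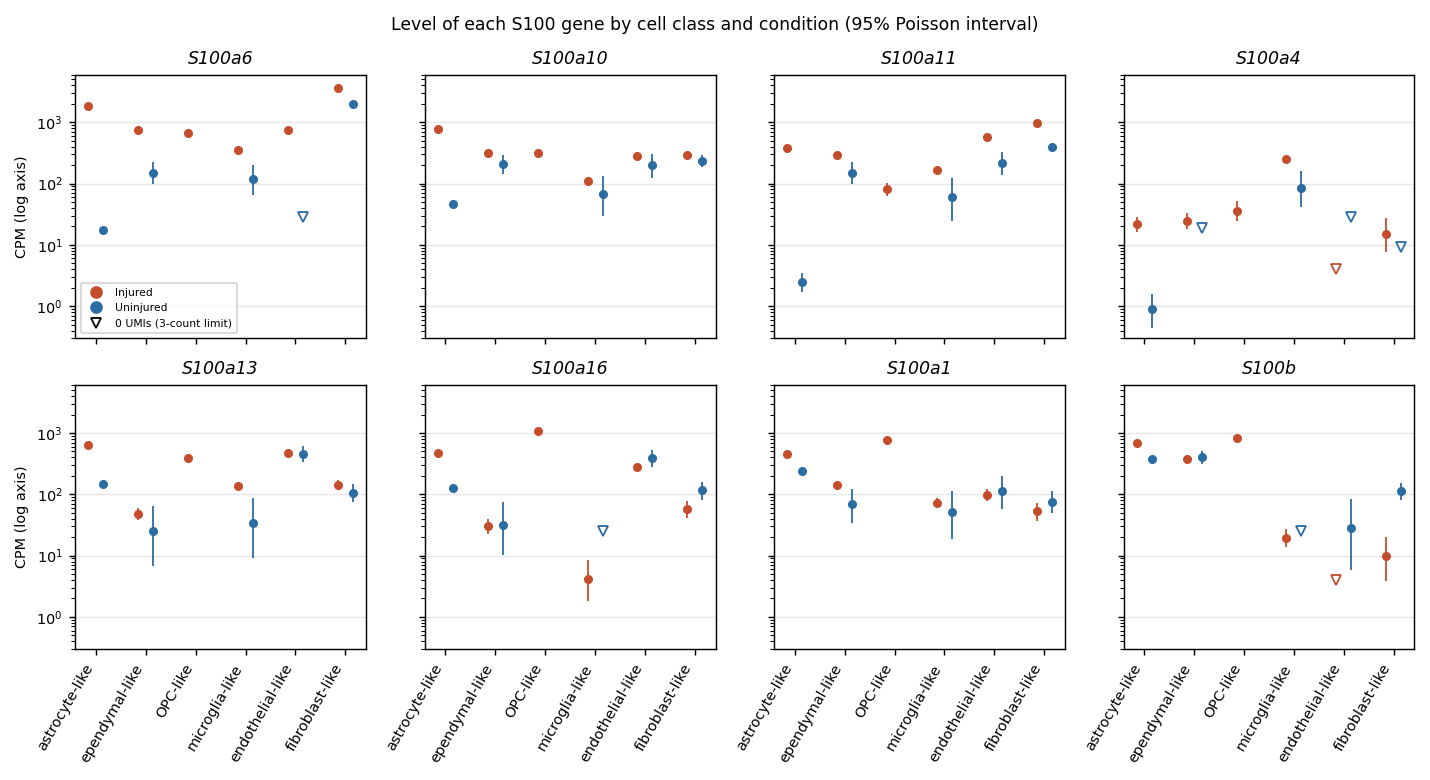
Level of each S100 gene in CPM (log axis) by marker-defined class, injured in red and uninjured in blue, with 95% Poisson intervals and open triangles at the level of 3 counts where no UMI was found. Uninjured astrocyte-like cells are the lowest group with a UMI of S100a6, at 17.2 CPM. Uninjured endothelial-like cells had 0 UMIs, which allows up to 28.3 CPM, so these groups cannot be ordered. S100b differs far less between conditions in astrocyte-like cells than S100a6. OPC-like cells have no uninjured point because under 20 cells were found.

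Summed over the 8 genes, the family took 5305 CPM of the astrocyte-like cells after injury against 962 CPM, a ratio of 5.52 (5.38 to 5.66), or 2.46 on the log2 scale. Without cluster 1, which held most injured cells, the log2 ratio of the sum was 0.15, with an interval from -0.01 to 0.30 that held 0. The injured cells then left included 49 of cluster 4, where mitochondrial genes took 48.5% of the UMIs. The make-up of the sum over all astrocyte-like cells differed as well. S100a6 made up 35.3% of the family's UMIs in injured cells and 1.79% in uninjured cells. S100b went the other way, with 13.1% and 39.4%, and so did S100a1, with 8.70% and 25.2%. The 8 transcripts have summed exon lengths of 511 to 1617 bases, and each molecule is counted once from its 3′ end, so these shares are of molecules and not of bases.

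**Figure D2:**
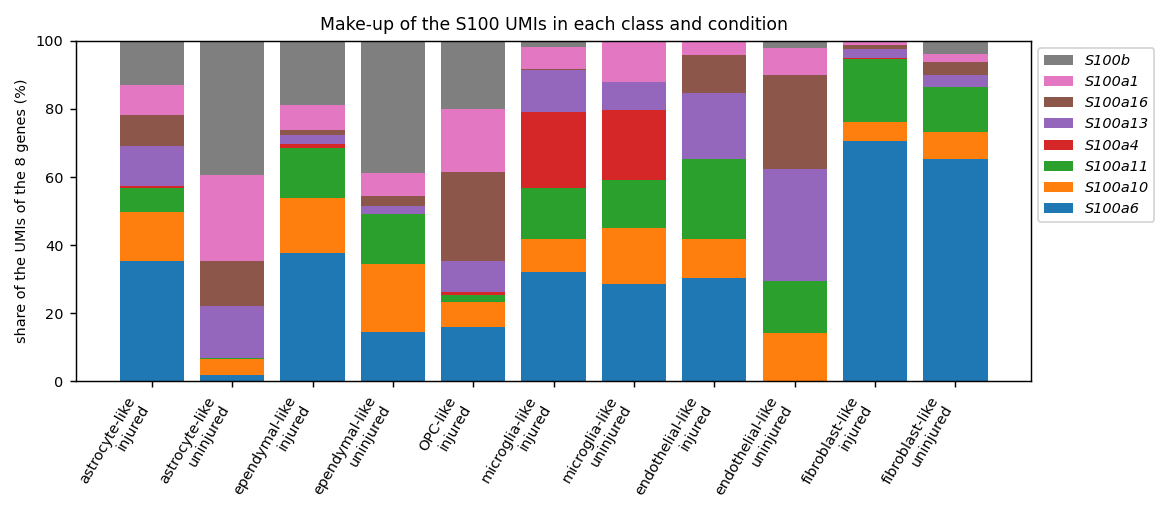
Share of the UMIs of the 8 genes taken by each gene (stacked to 100%) in each class and condition with at least 20 cells. S100b holds 39.4% of the bar of uninjured astrocyte-like cells and 13.1% of the injured bar, and S100a6 holds 65.4% and 70.6% of the bars of uninjured and injured fibroblast-like cells.

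The shares of astrocyte-like cells with at least 1 UMI differed in the same direction for all 8 genes. S100a6 was found in 67.4% of cells after injury and 5.46% without it, and S100a11 in 48.1% and 0.63%. S100b was found in 76.3% and 62.6%. Its share in endothelial-like cells, which are not known to use the gene, was 0 of 70 injured cells and 7.69% of 26 uninjured cells, with median depths of 7972 and 3138 UMIs against 3709 and 3354 in astrocyte-like cells.

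Depth was then set equal by drawing each cell down to 1000 gene UMIs, which left out 35 injured and 67 uninjured astrocyte-like cells. The shares became 48.0% and 1.44% for S100a6, 24.3% and 0.184% for S100a11, and 37.2% and 4.13% for S100a10. For S100a13 they were 39.8% and 12.7%, for S100a16 33.5% and 11.4%, for S100a1 35.4% and 19.3%, and for S100b 48.8% and 29.6%. All 7 of these genes kept intervals that did not overlap. The intervals of S100a4, at 1.85% (0.746% to 3.77%) and 0.0918% (0.0189% to 0.268%), did not overlap either, but it was near the level of single UMIs.

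**Figure D3:**
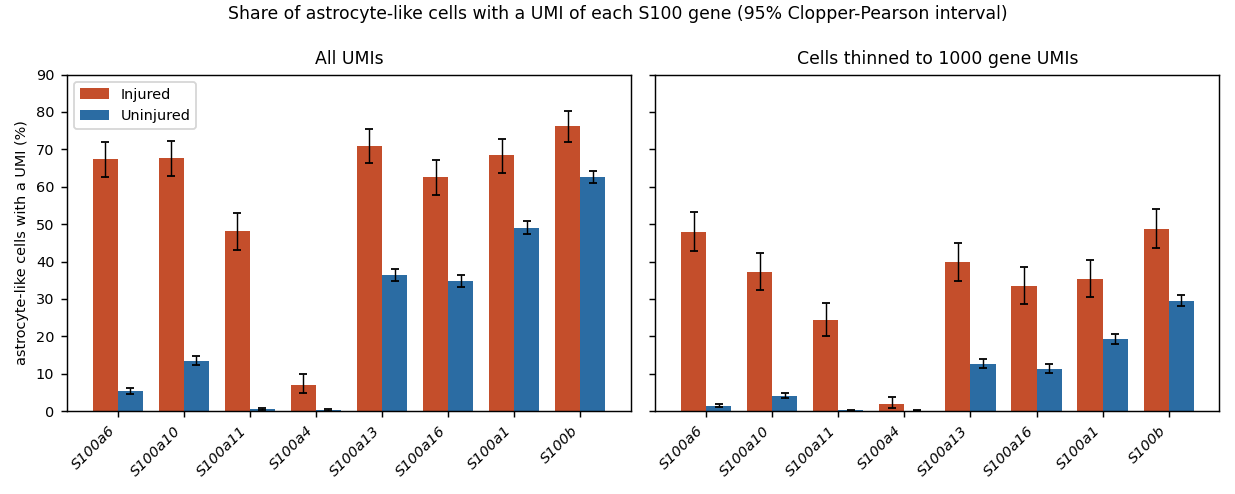
Percent of astrocyte-like cells with a UMI of each gene, injured in red and uninjured in blue, with all UMIs (left) and after thinning to 1000 gene UMIs (right), and with 95% Clopper-Pearson intervals. Thinning lowers every bar, and S100a6 keeps 48.0% against 1.44%.

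At equal depth, cells with several of the genes were more common after injury. Whether this goes beyond the higher share of each single gene was not tested. UMIs of 4 or more of the 8 genes were found in 35.1% of astrocyte-like cells after injury and 0.581% without it, and the median cell had 3 and 1 of them. S100a6 was spread unevenly, since the 41 highest of 379 injured cells held 61.5% of its thinned UMIs, up to 34 in 1 cell. For S100b the 41 highest cells held 37.0%.

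The injured astrocyte-like cells were not of 1 kind, and the result depends on which of them are compared. Cluster 1, led by Tgm1, Lcn2 and Gfap, held 322 of the 414 injured cells (77.8%) and 12 of the 3336 uninjured cells. Uninjured cells were mostly in clusters 4 (23.8%), 6 (20.7%), 9 (17.2%) and 11 (37.9%). S100a6 was at 2136 CPM in the injured cells of cluster 1, and at 209 CPM in cluster 9 and 65.6 CPM in cluster 4. Without cluster 1, which left 92 injured cells, 4 of the 8 genes were at least 2-fold higher, against 4.97% of all genes with a mean of 10 CPM. The members were counted without that filter, so count and share are not on the same footing. Cluster 1 held 50 of the 52 injured UMIs of S100a4 and 892 of the 897 of S100a11. Their calls without it therefore rest on very few UMIs. The log2 ratio was then -0.37 for S100a1, -0.34 for S100a16 and -0.41 for S100b, as point values without intervals. That of S100a6 was still 3.11 and of S100a10 1.52. That of S100a11 was 2.64, from its few injured UMIs outside cluster 1. Within cluster 9 the log2 interval of S100a11 ran from -0.36 to 4.04, and its intervals within clusters 4 and 11 held 0 as well. Of those 92 injured cells, 49 were in cluster 4, where mitochondrial genes took 48.5% of injured and 10.4% of uninjured UMIs. The part of that share in these ratios was not tested.

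Of the single clusters with at least 10 cells of each condition, cluster 9 showed genes on both sides of equal levels. In cluster 9, led by Nkain4, Grm8 and Cldn10, 28 injured and 575 uninjured cells could be compared. S100a6 was at 209 and 25.4 CPM there, a ratio of 8.22 (5.23 to 12.7), and S100a10 at 183 and 74.9 CPM, a ratio of 2.45 (1.60 to 3.63). S100b instead was lower in the injured cells, at 354 and 575 CPM, a ratio of 0.615 (0.463 to 0.804). S100a1 and S100a16 were lower too, with ratios of 0.674 (0.481 to 0.921) and 0.632 (0.382 to 0.986). S100a13 was at 247 and 239 CPM, with an interval that held 1.

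Cluster 4 gave a like order with fewer UMIs. S100a6 was at 65.6 CPM (6 UMIs) in its 49 injured cells and at 7.31 CPM (14 UMIs) in its 795 uninjured cells, a ratio of 8.97 (2.83 to 24.9). The intervals of S100b, S100a1 and S100a16 held 1. Mitochondrial genes took 48.5% of the UMIs of these injured cells, and their part in the result was not tested. Leaving the cluster out gave 6 genes at least 2-fold higher, against 13.3% of all genes. In cluster 11, with 10 injured and 1263 uninjured cells, S100a6 was at 39.0 CPM (2 UMIs) and 14.5 CPM (72 UMIs), a ratio of 2.69 (0.319 to 10.1), and the intervals of S100a1, S100a16 and S100b held 1 as well.

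The 12 uninjured cells of cluster 1 were set beside its 322 injured cells. S100a6 was at 270 CPM (21 UMIs) in these uninjured cells, above the 17.2 CPM of the whole uninjured class and below the 2136 CPM of the injured cells. S100a10 was at 464 and 866 CPM, and S100b at 335 and 758 CPM. In this cluster 7 of the 8 genes had ratios with intervals above 1, and S100a4 had no UMI in the uninjured cells. Mitochondrial genes took 19.9% of the UMIs of the 12 uninjured cells and 6.43% of those of the 322 injured cells, with median depths of 6433.5 and 4017.5 UMIs, and their part in these ratios was not tested.

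The injured cells were also split by Gfap. Of the injured astrocyte-like cells, 361 had a Gfap UMI and 53 had none, with median depths of 4087 and 1394 UMIs. S100a6 was at 1938 CPM with and 615 CPM without Gfap, a ratio of 3.15 (2.50 to 4.03). S100a13 had a ratio of 3.09 (2.09 to 4.79). S100a11 was at 380 and 328 CPM, a ratio of 1.16 (0.840 to 1.64), so its level was similar within counting error. In uninjured cells (545 with and 2791 without Gfap) the ratio of S100a6 was 1.42 (1.03 to 1.94).

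Several measures moved with the condition in astrocyte-like cells. Malat1 took 2.77% of injured and 7.71% of uninjured UMIs, and mitochondrial genes 8.05% and 6.22%. The microglia marker list summed to 149 and 96.2 CPM, the monocyte and macrophage list to 18.5 and 3.53 CPM, the endothelial list to 16.4 and 4.82 CPM, and the fibroblast list to 130 and 138 CPM. The ependymal list summed to 112 and 35.5 CPM, the neuron list to 375 and 169 CPM, the OPC list to 1156 and 992 CPM and the erythroid list to 10.9 and 460 CPM. Of the 8 neutrophil markers, 7 were at 0 in injured cells. The part of these measures in the S100 differences was not tested. Among the 129 injured and 2292 uninjured cells scored male, 6 genes were at least 2-fold higher, against 13.2% of all genes, with log2 ratios of 5.94 for S100a6 and 0.56 for S100b.

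Levels outside astrocytes were compared over classes of at least 20 cells, which leaves out the 13 injured and 3 uninjured mural-like cells. S100a6 was highest in fibroblast-like cells in both conditions, at 3663 CPM injured and 1964 CPM uninjured, where it was found in 100% and 90.5% of cells. Injured astrocyte-like cells were next, followed by ependymal-like cells at 742 CPM and endothelial-like cells at 734 CPM, which did not differ beyond counting error. OPC-like cells were at 665 CPM and microglia-like cells at 357 CPM. Among these classes S100a11 was also highest in fibroblast-like cells of the injured library, at 961 CPM. It was at 571 CPM in endothelial-like, 377 CPM in astrocyte-like and 291 CPM in ependymal-like cells. In the 13 injured mural-like cells, left out for their number, S100a11 stood at 1049 CPM (842 to 1290).

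S100a4 was highest in microglia-like cells, at 250 CPM injured and 85.5 CPM uninjured, although the 10 UMIs of the latter came from 1 of 31 cells. It had 0 UMIs in both groups of endothelial-like cells. S100a10 had its highest injured level in astrocyte-like cells. In uninjured cells that order was turned, with 46.3 CPM in astrocyte-like cells and 198 to 237 CPM in ependymal-like, endothelial-like and fibroblast-like cells (208 CPM in the first of these).

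S100b, S100a1 and S100a16 were highest in glial classes of the injured library. In the injured library S100b was at 835 CPM in OPC-like, 695 CPM in astrocyte-like and 373 CPM in ependymal-like cells, against 19.6 CPM in microglia-like cells and 0 of 70 endothelial-like cells, which allows up to 4.01 CPM. S100a16 was at 1090 CPM in OPC-like cells and S100a1 at 773 CPM, both above the astrocyte-like level. S100a16 was also present in endothelial-like cells, at 276 CPM injured and 387 CPM uninjured. S100a13 was at 467 and 462 CPM there, the class in which it was highest in the uninjured library.

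The injured and uninjured libraries were then compared within each other class of at least 20 cells. In microglia-like cells (126 and 31 cells), 4 of the 6 genes with a value were at least 2-fold higher, against 11.8% of 7990 genes, and none was 2-fold lower, against 22.5%. The ratios were 2.98 (1.76 to 5.48) for S100a6, 2.93 (1.58 to 6.14) for S100a4 and 2.74 (1.31 to 6.87) for S100a11. For S100a13 the ratio was 3.96 (1.53 to 14.6). The 14 uninjured UMIs of S100a6 came from 2 of the 31 cells, and the 10 of S100a4 from 1 cell. S100a16 and S100b had 0 UMIs in the uninjured cells and too few in the injured cells for a bound.

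This class was mixed. The monocyte and macrophage list summed to 10132 CPM in injured and 3772 CPM in uninjured microglia-like cells. A split by a UMI of P2ry12, Tmem119 or Siglech, genes of resident microglia, was made after the class values were seen. S100a4 was at 148 CPM in the 94 injured cells with such a UMI and 670 CPM in the 32 without, a ratio of 4.52 (3.76 to 5.44). S100a6 was at 193 and 1029 CPM and S100a11 at 81.6 and 502 CPM. S100a13 and S100a1 had intervals that held 1. Lyz2 and Ccr2 were 2.52 and 4.04 times as high in the injured cells without such a UMI. Of the uninjured cells, 23 had such a UMI and 8 had none. S100a6 had 1 UMI in the 23 cells and 13 UMIs in the 8, and S100a4 had 0 and 10. In cells with such a UMI, S100a6 was thus at 193 CPM injured and 12.3 CPM uninjured, the latter from 1 UMI.

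In ependymal-like cells (144 and 31 cells), 2 genes were at least 2-fold higher, against 9.26% of 9747 genes. S100a6 was at 742 and 151 CPM, a ratio of 4.90, and S100a1 at 143 and 69.4 CPM, a ratio of 2.07. S100a4 had 42 UMIs in the injured cells and 0 in the uninjured cells, at least 1.31-fold higher. S100b was at 373 and 404 CPM, with an interval of the log2 ratio from -0.49 to 0.28.

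In endothelial-like cells (70 and 26 cells), S100a6 and S100a11 were at least 2-fold higher, against 8.55% of 8615 genes. S100a6 had 550 UMIs in the injured cells and 0 in the uninjured cells, at least 25.9-fold higher with the uninjured group at a floor of 3 counts. S100a11 was at 571 and 217 CPM, a ratio of 2.63. S100a13 was nearly equal, at 467 and 462 CPM.

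In fibroblast-like cells (43 and 95 cells), 1 gene was at least 2-fold higher, against 12.8% of 9487 genes, and 2 were at least 2-fold lower, against 14.5%. S100a11 was at 961 and 390 CPM, and S100a6 at 3663 and 1964 CPM. S100b was at 9.70 CPM (7 UMIs) and 113 CPM (37 UMIs), a log2 ratio of -3.41, and S100a16 at 56.8 and 116 CPM, a log2 ratio of -1.01. The astrocyte marker list summed to 1016 and 1906 CPM in the same cells, and its part in these 2 results was not tested. At resolution 1.0, 48 fibroblast-like cells, all uninjured, formed a cluster of their own. The other fibroblast-like cluster held 43 injured and 47 uninjured cells. The part of this make-up in the ratios of the class was not tested.

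**Figure D4:**
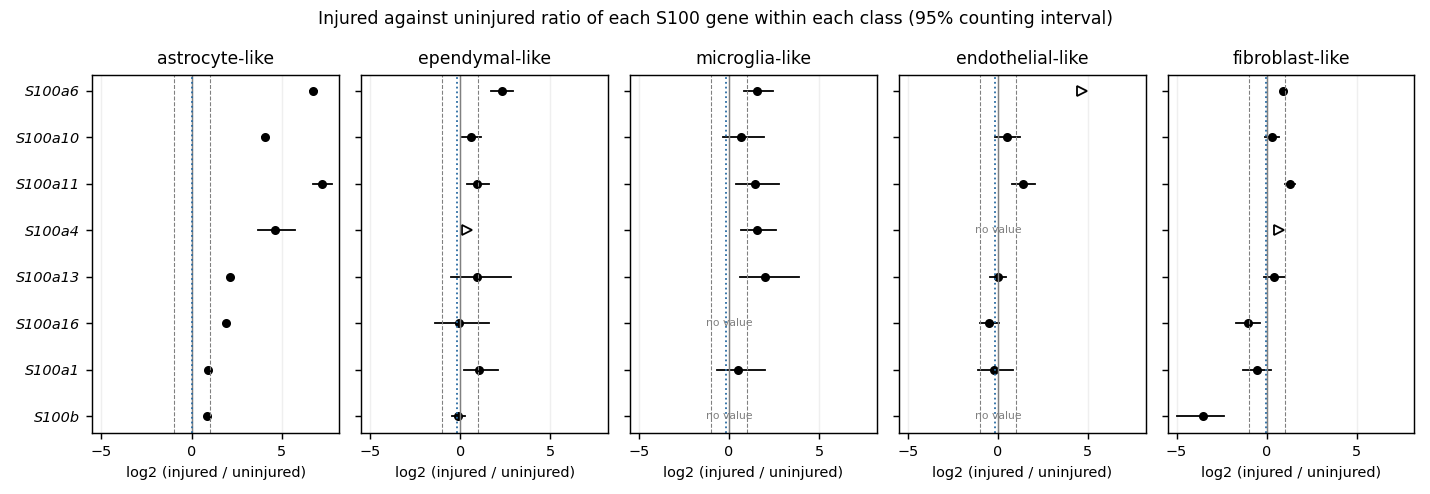
Log2 ratio of injured over uninjured CPM of each gene within 5 classes, with 95% counting intervals, open triangles for bounds where 1 condition had no UMI, dashed lines at 2-fold and a dotted blue line at the median of all genes. The 8 points of the astrocyte-like panel lie to the right of 0, and S100b lies to the left in the fibroblast-like panel.

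A cluster that scored for astrocyte markers but was led by neuron genes (Nefl, Nefh, Snap25) was left unnamed, with 29 injured and 623 uninjured cells. S100a6, S100a10 and S100a11 were at least 2-fold higher in its injured cells, against 17.9% of 9294 genes. S100a1, S100a16 and S100b were at least 2-fold lower, against 23.8%. S100b was at 148 and 519 CPM. Mitochondrial genes took 28.9% of the injured UMIs and 11.9% of the uninjured UMIs, and the astrocyte list summed to 2421 and 13461 CPM. The neuron list summed to 4874 and 1318 CPM. The part of these measures in the ratios of the cluster was not tested.

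The other 9 S100 genes of the matrices were nearly silent outside 1 class. S100a8 and S100a9 had 402 and 390 UMIs in injured microglia-like cells and 0 in uninjured ones. All 390 UMIs of S100a9 came from 4 cells, and 378 of those of S100a8 came from its 4 highest cells. In injured astrocyte-like cells each had 1 UMI. The other 7 genes had at most 11 UMIs in any class and condition, the most being those of S100a2 in injured OPC-like cells.

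Of 15 genes listed as partners and receptors of S100 proteins, 10 passed the filter in astrocyte-like cells, 3 were at least 2-fold higher, against 13.8% of all genes, and none was 2-fold lower, against 7.05%, with a median log2 ratio of 0.44. Anxa2, the partner of S100a10, was at 140 and 3.29 CPM. Ahnak, a large scaffold that binds the pair, was at 97.2 and 1.53 CPM. Their log2 ratios, 5.04 and 5.28, were above the 4.02 of S100a10 itself. Cacybp, which binds S100a6, was at 91.3 and 44.1 CPM.

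The partners of the other genes differed less. Fgf1, cargo of S100a13, was at 119 and 161 CPM, and Atp2a2 was at 329 and 394 CPM. Ager, the receptor RAGE, had 5 and 14 UMIs, too few for a comparison. Anxa1 had 2 and 0 UMIs.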

How the data were processed

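For each condition, the authors deposited a matrix of unnormalised UMI counts. The matrix headers name Cell Ranger 7.1.0 and the submitters' notes Cell Ranger 8.0.1 with mm10. Of the 4 samples, both barcode libraries (23 enhancer features) were not used here. Cells with over 500 and under 50000 gene UMIs were kept, which removed 40 injured cells (total gene UMIs 8499672 injured, 15543460 uninjured). Clustering used scanpy 1.11.5 with 2000 variable genes (6 S100 genes dropped), 15 components, 15 neighbours and Leiden resolution 0.5. The 12 clusters were named by the highest score over 14 lists of 8 markers (above 0.2, at least 3 markers found in 10% of cells). The scoring rule was set after a first look at the clusters. No doublets were removed.

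UMIs were summed per class and scaled to CPM. Intervals were exact: Poisson for sums, Clopper-Pearson for shares and conditional binomial for ratios. A call was a 2-fold ratio after adding 1 CPM, among genes with a mean of 10 CPM, with groups at 0 set to 3 counts. The 8 members were counted whether or not they had that mean. Ratios printed with an interval have no added CPM, and log2 ratios have 1 CPM added. The procedure was run on simulated counts with known ratios and counting error only. That run cannot speak to spread among cells or animals. The genes named were the 8 members, the other S100 genes, 15 partners and receptors, markers and, per member, the 3 genes most alike. Members and lists were chosen with earlier results of these data known. Alternatives that leave out or add a cluster, drop Malat1 or split the microglia-like cells were chosen after seeing the data. All 17 S100 identifiers matched GENCODE M21.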

Additional observations from a re-analysis of the deposited data

Results flagged for a closer look

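Several ratios were above 1 in astrocyte-like cells as a whole and below 1 elsewhere, which drew attention to them. The differences between classes were not tested, since each condition had 1 library. In fibroblast-like cells the log2 ratio of injured over uninjured was -3.41 for S100b and -1.01 for S100a16. In the unnamed cluster it was -2.09 for S100a1, -1.87 for S100a16, -1.81 for S100b and -1.01 for the sum of the 8 genes. Within astrocyte-like cluster 9 it was -0.57 for S100a1, -0.66 for S100a16 and -0.70 for S100b. At resolution 1.0, 48 uninjured fibroblast-like cells were in a cluster without injured cells, so that class was not alike in both conditions. The unnamed cluster was not alike in both conditions either. Its astrocyte list summed to 2421 CPM injured and 13461 CPM uninjured, and its neuron list to 4874 and 1318 CPM. The part of this make-up in its ratios was not tested.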

How the results depend on the processing

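The count of 6 genes at least 2-fold higher in injured astrocyte-like cells was 4 to 8 over 17 alternatives. Members were counted whether or not they had a mean of 10 CPM. The log2 ratio of the family's summed level, 2.46 as reported, was 2.51 with no filter on cells, 2.55 at resolution 1.0, 2.64 with S100 genes kept in clustering, 2.04 in male cells, 2.23 in cells with an Aldh1l1 UMI and 2.37 without the highest 5% of Scrublet scores. It was 2.57 without mitochondrial, ribosomal protein and haemoglobin genes, 2.42 when centred on all genes and 2.63 as a mean over cells. Among alternatives chosen after seeing the data, it was 2.33 with the unnamed cluster, 2.38 without cluster 4, 2.39 without Malat1 and 0.15 (-0.01 to 0.30) without cluster 1. Without cluster 1 the point values of S100a1 (-0.37), S100a16 (-0.34) and S100b (-0.41) changed sign, and 4.97% of genes were at least 2-fold higher and 11.5% lower. Cluster 1 held 1038 of the 1097 injured UMIs of S100a1, 1109 of the 1141 of S100a16 and 1562 of the 1652 of S100b. The values without it therefore rest on few injured UMIs, and no interval is given for them. The injured cells then left included 49 of cluster 4, with 48.5% mitochondrial UMIs, and the part of that share was not tested. Over the other 16 alternatives each of the 8 genes stayed above 0, with S100b from 0.56 to 1.17 and S100a6 from 5.94 to 6.82. With 10 CPM added, 4.06% of genes were 2-fold lower. The class with the highest level changed in 8 of 48 cases, all among male cells, where several classes had under 20 cells. No paired analysis was possible because there was only 1 library of each condition. The small uninjured classes limit the ratios outside astrocyte-like cells.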

Other observations

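Genes with a pattern like that of each member were sought by Pearson correlation of log levels over 13 groups of class and condition, among 10922 genes. The groups come from 2 libraries that differ in depth, so r is a description. S100a11 was most like Anxa2 (r = 0.943) and Vim (r = 0.942), a filament gene of reactive astrocytes, which was at 1746 CPM in injured and 7.31 CPM in uninjured astrocyte-like cells. S100b was most like Negr1 (r = 0.960), which was lower in injured astrocyte-like cells (320 and 916 CPM) although S100b was higher. S100a10 was most like Snrnp27 (r = 0.939), S100a6 like Tmem258 (r = 0.902), S100a4 like Btk (r = 0.922), S100a1 like Plpp4 (r = 0.945), S100a16 like Cnih1 (r = 0.934) and S100a13 like Alad (r = 0.878). Among the members, the neighbours S100a10 and S100a11 were most alike (r = 0.828), then S100a13 and S100a16 (r = 0.765). S100a1 and S100a13, which share a GENCODE gap of 42 bases, had r = 0.562, and S100a11 and S100b had r = -0.36.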
